A study of Rattus norvegicus with 3 samples.

Results

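Fibroblast growth factor (FGF) ligands and receptors were followed across 3 salivary glands of the rat, the sublingual, submandibular and parotid. The 10 genes are the secreted ligands Fgf1, Fgf2, Fgf7, Fgf9 and Fgf10, the intracellular factor Fgf13, and the receptors Fgfr1, Fgfr2, Fgfr3 and Fgfr4. They were chosen by gene name: every non-control probe that the array files assign to one of these symbols was taken, which gave 13 probes (22 spots) of 41012 probes (43379 spots), or 10 of 16067 genes with a usable name. Total RNA from these glands of male Wistar rats, 10 weeks old, carried the dye Cy3, and each gland has a single Agilent array. The design text mentions 3 rats, and no source ties an animal to an array. Each value therefore describes 1 array, no test was possible and no p-value is given.

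Secreted FGFs bind receptor tyrosine kinases at the cell surface together with heparan sulfate chains, and the receptors then act through adaptor proteins and the Ras and MAP kinase cascade. In salivary gland development, as known mainly from the mouse, Fgf10 and Fgf7 made by the mesenchyme act on Fgfr2 of the epithelium and drive branching growth, while Fgf9 and Fgf1 are further ligands expressed in the developing gland. Fgf2 is a broadly acting ligand stored in the extracellular matrix. Fgf13 is not secreted and binds ion channels and microtubules inside cells.

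The labels were set against gland markers first. Mucous acinar markers (Muc19, Agr2, Bpifb2, Gcnt3 and Galnt5) were well above background for 5 of 5 genes on the sublingual and submandibular-labelled arrays and for 1 of 5 on the parotid array, and all 5 serous markers (Amy1, Dnase1, Prp2, Cst5 and Pip) lay more than 4-fold under their parotid level on both of those arrays. Of 7 products of the granular ducts, which mark the male rat submandibular gland, 0 exceeded both other arrays by 4-fold on the array with the submandibular label, so that array is called submandibular-labelled. Signals below are the scanner software's processed intensities, detrended across the array with local background correction off, and levels are log2 signals minus the 75th percentile of the array (signals of 244, 228 and 186 on the sublingual, submandibular-labelled and parotid arrays). A probe not well above background, by the scanner software's own flag, has only an upper bound, and a fold against it is written as at least. Where a probe was spotted repeatedly, the median SD between its spots was 0.08, 0.08 and 0.09 on the log2 scale for probes well above background, and 0.18, 0.16 and 0.22 for probes at levels from -3.5 to -1, where the ligands that passed the background flag lie except Fgf2. Under -3.5, where the dim ligand values lie, it was 0.48, 0.43 and 0.52. These SDs cover neither animals nor labelling, and fewer cells of a type and less RNA per cell cannot be told apart in whole glands.

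More of the FGF genes were measurable on the parotid array than on the others. Well above background were 5 of the 10 genes on the sublingual, 5 on the submandibular-labelled and 8 on the parotid array, where the shares over all genes were 64.0%, 62.9% and 64.7%. Fgfr4 has no value on the submandibular-labelled array, since its spot was left out for an outlier flag and not for being dim, so the count there is 5 of 9 genes with a value. Fgf9, Fgfr1, Fgfr2 and Fgfr3 were well above background on all 3 arrays, as were 59.1% of all genes. Fgf2, Fgf7 and Fgf10 were so on the parotid array alone, as were 3.51% of all genes. Fgf1 showed the opposite pattern, above background on the sublingual and submandibular-labelled arrays and not on the parotid array, as were 2.60% of all genes.

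**Figure D1:**
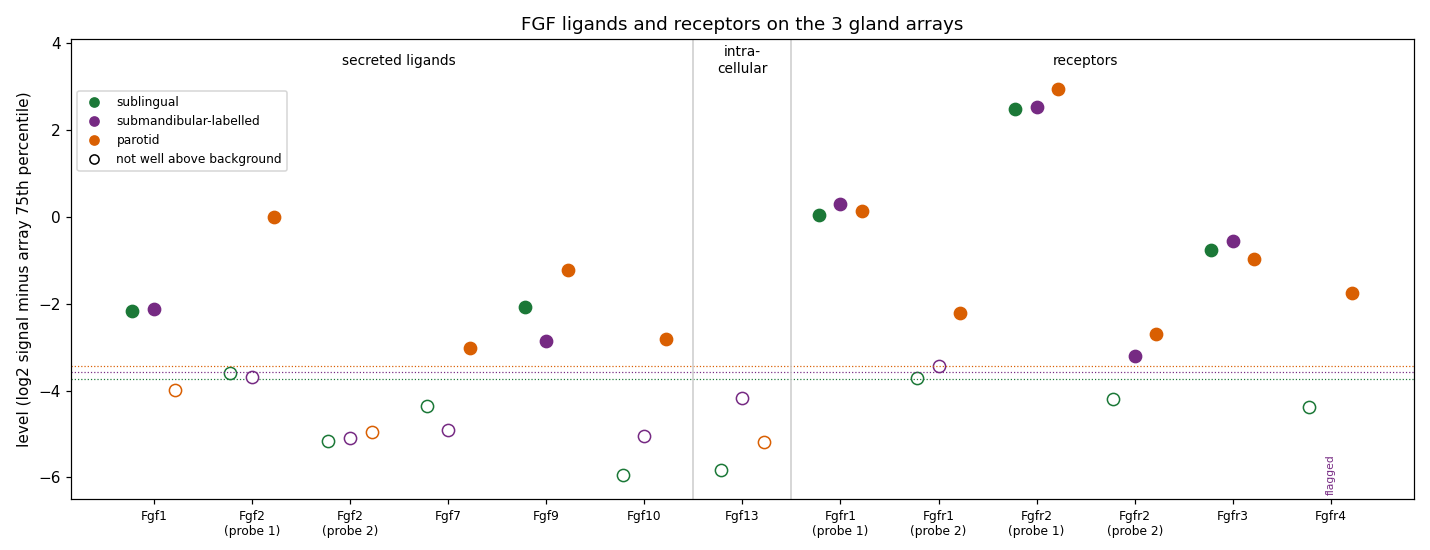
Level of every FGF probe on the sublingual, submandibular-labelled and parotid arrays, as log2 signal minus the array's 75th percentile, 1 point per array; open points are not well above background, dotted lines give the lowest level well above background on each array, and the word flagged marks the Fgfr4 spot left out. Fgf2 probe 1, Fgf7 and Fgf10 are filled on the parotid array alone, while Fgfr1 probe 1, Fgfr2 probe 1 and Fgfr3 lie close together on all 3 arrays. Heights of different probes are not comparable with each other.

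Of the members, 4 were at least 2-fold apart between some pair of arrays. Of 9 members compared between the sublingual and parotid arrays, 1 was higher by that margin (Fgf1) and 2 were lower (Fgf2 and Fgfr4), where 12.5% and 12.3% of 10889 genes were higher and lower. Of 8 compared between the submandibular-labelled and parotid arrays, 1 was higher (Fgf1) and 2 lower (Fgf2 and Fgf9), where 10.9% and 11.0% of 10880 genes were. Of 5 compared between the sublingual and submandibular-labelled arrays, 0 differed by 2-fold, as did 1.55% of 10450 genes in either direction. The median difference of the members was -0.72 for sublingual minus parotid, against 0.06 over all genes compared, and -0.49 for submandibular-labelled minus parotid, against 0.10. These medians describe bounds as much as measured values: -0.72 is the bound of Fgf7, and 5 of 9 and 4 of 8 values are bounds, whose sign was fixed by the array on which the gene passed the background flag. Nothing is read from them or from the counts. Both comparisons share the parotid array, so their likeness is not independent.

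**Figure D2:**
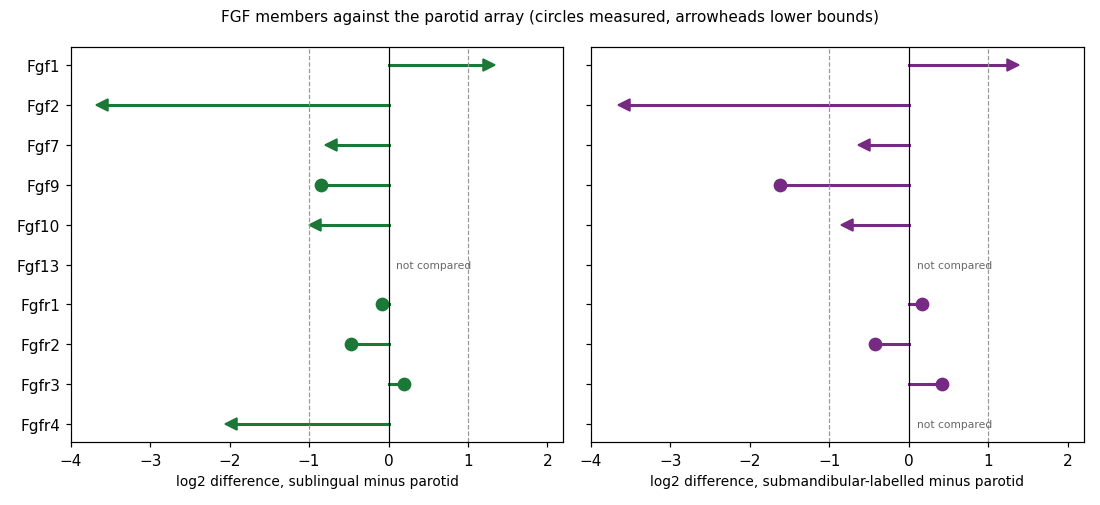
Log2 difference of each FGF gene from the parotid array, for the sublingual array (left) and the submandibular-labelled array (right); circles are measured on both arrays, arrowheads are lower bounds where 1 array was not well above background, and dashed lines mark 2-fold. Fgf2 has the longest bars (-3.60 and -3.59), Fgf1 alone of the ligands points to the right, and Fgfr1 and Fgfr3 stay within 0.42 of 0.

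Among the ligands, Fgf9 was measured on all 3 arrays and was 3.08-fold lower on the submandibular-labelled array than on the parotid. Its sublingual level was under 2-fold from the parotid level, so no direction is read for that pair. For Fgf1, Fgf2, Fgf7 and Fgf10 the direction was set by the array that passed the background flag. The start regions of 4 of them are shown because Fgf2, Fgf7 and Fgf10 had signal well above background on the parotid array alone and Fgf1 had the reverse pattern. They are the 250 bases before the RefSeq start of each gene (build GRCr8), 5′ to 3′ on the gene's strand, in lower case with capitals for GGGCGG (the GC box) or TATAAA (the TATA box) on either strand.
Fgf1 (chr18:30961394-30961643, minus strand): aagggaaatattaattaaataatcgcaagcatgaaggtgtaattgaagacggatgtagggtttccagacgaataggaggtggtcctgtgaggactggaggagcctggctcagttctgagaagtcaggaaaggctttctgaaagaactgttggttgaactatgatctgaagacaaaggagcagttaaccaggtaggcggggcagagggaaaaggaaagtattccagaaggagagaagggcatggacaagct
Fgf2 (chr2:122164204-122164453, plus strand): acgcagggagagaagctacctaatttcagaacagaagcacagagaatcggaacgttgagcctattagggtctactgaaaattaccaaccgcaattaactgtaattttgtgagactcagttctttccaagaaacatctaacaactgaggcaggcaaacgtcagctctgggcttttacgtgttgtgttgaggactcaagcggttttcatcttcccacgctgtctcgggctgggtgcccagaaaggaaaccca
Fgf7 (chr3:133735377-133735626, plus strand): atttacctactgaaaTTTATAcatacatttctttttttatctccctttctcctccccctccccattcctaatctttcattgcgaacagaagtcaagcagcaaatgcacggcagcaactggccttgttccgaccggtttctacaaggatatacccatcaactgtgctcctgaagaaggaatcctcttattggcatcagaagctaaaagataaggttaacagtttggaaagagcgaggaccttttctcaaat
Fgf10 (chr2:52533689-52533938, plus strand): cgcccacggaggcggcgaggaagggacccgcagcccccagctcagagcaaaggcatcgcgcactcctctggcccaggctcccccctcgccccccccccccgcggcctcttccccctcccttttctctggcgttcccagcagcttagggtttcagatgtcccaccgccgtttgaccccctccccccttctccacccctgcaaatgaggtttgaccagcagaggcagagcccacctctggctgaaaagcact
RefSeq start regions were found for 9 of the 10 genes. The TATAAA letters occur once in the Fgf7 region (1 match, read on the opposite strand) and in 13.1% of 27457 regions of this length, and GGGCGG, present in 32.4% of them, is in none of these 4. The GC content was 46.0%, 46.8%, 41.6% and 67.2% for Fgf1, Fgf2, Fgf7 and Fgf10, against a median of 52.0%. A match is a string of letters and not a measured site.

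Fgf1, acidic FGF, a ligand able to bind all of the receptors, had signals of 54.0 on the sublingual, 52.5 on the submandibular-labelled and 11.8 on the parotid array. The first pair lay well above background and differed by 0.06 on the log2 scale, while the parotid spot did not reach it. Relative to the parotid array, Fgf1 was thus higher by at least 2.39-fold (sublingual) and 2.49-fold (submandibular-labelled). With normexp background correction, which keeps a floor under dim spots, these log2 differences shrank to 0.38 and 0.47. The probe lay on chromosome 18 from 31785788 to 31785847 (rn4). A further probe, which the files describe only as similar to mouse FGF1 and which is no member, had signals of 34.0, 32.2 and 14.1 in the same order of arrays, again not well above background on the parotid array. Its bounds were 1.51-fold and 1.53-fold higher than the parotid.

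Fgf2, basic FGF, had the widest difference among the members compared, and it rests on a single spot per array. Its brighter probe (chromosome 2, 123947600 to 123947659, rn4) had signals of 20.2 on the sublingual, 17.7 on the submandibular-labelled and 187 on the parotid array. Only the parotid spot was well above background, so relative to that array Fgf2 was lower by at least 12.1-fold (sublingual) and 12.0-fold (submandibular-labelled). At 4-fold it was the only member to differ, and 2.86% and 2.80% of all genes were 4-fold lower in the same comparisons.

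The other Fgf2 probe (chromosome 2, 123946945 to 123947004, rn4) did not show this difference. Its 10 spots per array ranged from 4.71 to 10.9 (sublingual), 4.37 to 12.1 (submandibular-labelled) and 3.90 to 13.7 (parotid). The 3 sets overlap, none of the 30 spots was well above background, and their SDs were 0.44, 0.56 and 0.51 on the log2 scale. Both probes carry the same RefSeq accession in the files, and why they disagree was not tested. Taking the median of both probes, the Fgf2 differences were -1.27 and -1.11, and with normexp on the brighter probe -1.61 and -1.82, against -3.60 and -3.59.

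**Figure D3:**
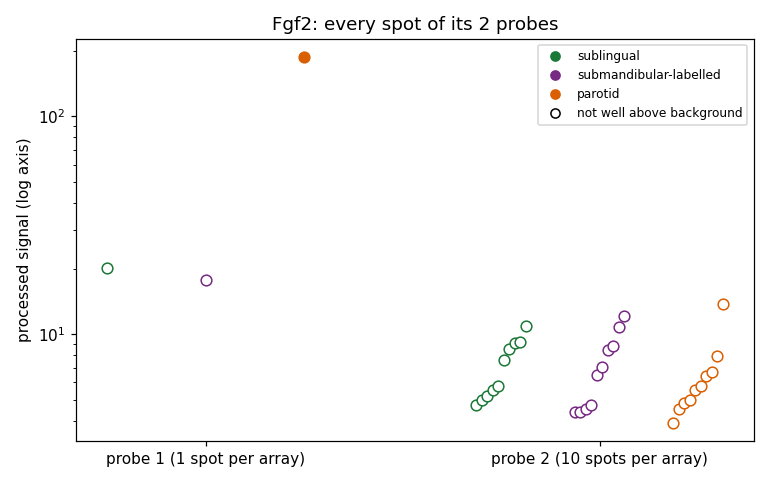
Processed signal of every Fgf2 spot on a log axis, for probe 1 (left, 1 spot on each array) and probe 2 (right, 10 spots on each array), by array; filled points are well above background. The parotid spot of probe 1 stands at 187 and all other spots lie at 20.2 or below.

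Fgf7, keratinocyte growth factor, which mesenchymal cells make for epithelial receptors, had signals of 11.9 on the sublingual, 7.57 on the submandibular-labelled and 23.0 on the parotid array. Fgf10, its close relative needed for salivary bud growth in the mouse, had signals of 3.93, 6.87 and 26.6 on the same arrays. Both passed the background flag on the parotid array alone, and both parotid spots lay close to the lowest signal that counts as such there (17.2). The folds are accordingly small bounds: relative to the parotid, Fgf7 was lower by at least 1.65-fold (sublingual) and 1.48-fold (submandibular-labelled), and Fgf10 by at least 1.91-fold and 1.71-fold. The scanner software put the error of the parotid spots at 20.1% of the signal for Fgf7 and 17.3% for Fgf10. The Fgf7 probe spanned chromosome 3 from 113516353 to 113517401 and the Fgf10 probe chromosome 2 from 50940230 to 50940289 (rn4).

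Fgf9, a ligand of the epithelium and mesothelium in the mouse embryo, was the one secreted member measured on every array. Its signals were 57.6 on the sublingual, 31.4 on the submandibular-labelled and 79.0 on the parotid array, with levels of -2.08, -2.86 and -1.24. Parotid was highest and submandibular-labelled lowest, 3.08-fold below it. The sublingual level lay between them, under 2-fold from each of its neighbours (0.78 above the submandibular-labelled and 0.85 below the parotid level). With normexp, the differences from the parotid were -0.39 for sublingual and -0.63 for submandibular-labelled, both short of 2-fold. The probe lay on chromosome 15 from 37155328 to 37155387 (rn4).

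Fgf13, the intracellular factor, was not well above background on any array, like 31.3% of all genes. Its signals were 4.32 on the sublingual, 12.7 on the submandibular-labelled and 5.10 on the parotid array, and no fold is given. Its probe lay on chromosome X from 144199684 to 144199743 (rn4).

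Most fibroblast markers were lower on the sublingual and submandibular-labelled arrays than on the parotid array, 3 of 7 by at least 2-fold on each. Over all genes compared, 12.3% and 11.0% were lower by that margin. Fgf9, the one member ligand measured on all 3, was past 2-fold lower on the submandibular-labelled array alone. The directions of Fgf1, Fgf2, Fgf7 and Fgf10 were fixed by the background flag and are not set beside the markers. Of 7 markers (Col1a1, Col1a2, Col3a1, Dcn, Lum, Pdgfra and Fbln1), all well above background on each array, 6 were lower on both the sublingual and the submandibular-labelled array than on the parotid array, with Fbln1 the exception. Their summed linear level was 79.9 and 68.9 on the sublingual and submandibular-labelled arrays and 199.6 on the parotid array. The collagen chains made up most of this sum on each array. Col1a1 was 3.23-fold and 4.22-fold lower, Col1a2 2.11-fold and 2.47-fold, and Col3a1 2.75-fold and 3.19-fold. The other markers that were lower stayed short of 2-fold: Dcn at 1.71-fold and 1.55-fold, Lum at 1.6-fold on each array, and Pdgfra at 1.41-fold and 1.5-fold. Endothelial markers (3, 3 and 5 of 6 well above background, with Tek at background on all) summed to 11.6, 9.71 and 17.6, Schwann cell markers (5 of 7 on each array, S100b at background on all) to 9.31, 12.2 and 27.2, and adipocyte markers (4 of 6 on each, Plin1 and Lep at background) to 6.90, 5.43 and 12.0. Sox10, with levels of 2.41, 3.02 and 4.51, made up most of the Schwann cell sum, in which Mbp was also lower on both arrays than on the parotid and Pmp22 and Prx were higher. Kdr, with levels of 3.46, 3.16 and 4.07, made up most of the endothelial sum and was 1.5-fold and 1.9-fold lower than on the parotid. Cdh5 was also lower on both arrays among the endothelial markers, and Vwf was higher on both. Cfd, with levels of 2.24, 1.75 and 2.86, made up most of the adipocyte sum, in which Adipoq, Fabp4 and Lpl were also lower on both arrays. Myoepithelial markers ran the other way, at 51.8, 62.6 and 21.0 (4 of 4 probed genes on each array). Leukocyte markers (3, 3 and 2 of 5 probed genes, Cd3e and Cd79b at background on all) summed to 7.67, 6.88 and 15.0, smooth muscle and pericyte markers (4 of 4) to 15.9, 20.5 and 12.6, and skeletal muscle markers (3, 3 and 2 of 5, Ckm and Myh4 at background on all) to 2.04, 2.66 and 0.876. These sums hide opposite members. Among leukocyte markers Cd52 was higher by at least 16.9-fold and 12.4-fold, while Jchain and Cd68 were lower. Among smooth muscle and pericyte markers Tagln was 2.42-fold and 3.19-fold higher, while Des, Rgs5 and Pdgfrb were lower. Among skeletal muscle markers Acta1 was 4.03-fold and 5.78-fold higher, while Tnnt3 was lower. The part of these cell types in the ligand values was not tested.

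The receptors Fgfr1, Fgfr2 and Fgfr3 differed by less than 2-fold between any pair of arrays on their brighter probes. Fgfr2, whose epithelial splice form receives Fgf7 and Fgf10, had signals of 1360 on the sublingual, 1320 on the submandibular-labelled and 1440 on the parotid array. After scaling these were levels of 2.48, 2.53 and 2.95, so that Fgfr2 was 1.39-fold and 1.34-fold lower than on the parotid array. Its other probe, near background, had signals of 13.4, 24.6 and 28.8 and was below its parotid level by at least 2.07-fold on the sublingual array and by 1.43-fold on the submandibular-labelled array. On chromosome 1 the brighter probe spans 189483073 to 189483132 and the dimmer 189520232 to 189520291 (rn4). Whether either separates the splice forms was not examined.

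Fgfr1, a receptor found mainly in mesenchyme, had signals of 253 on the sublingual, 282 on the submandibular-labelled and 205 on the parotid array. Its levels of 0.05, 0.31 and 0.14 span 0.25 on the log2 scale, and the sign of sublingual minus parotid turned from -0.09 to 0.16 when the arrays were centred on their medians. A second probe, for a separate Fgfr1 sequence, had signals of 18.6, 21.1 and 40.1, well above background on the parotid array alone. By that probe Fgfr1 was below the parotid by at least 2.83-fold on the sublingual array, with a bound of 2.33-fold for the submandibular-labelled array, so the 2 probes disagree. The first lay on chromosome 16 from 70870147 to 70870312 and the second from 70880267 to 70880326 (rn4).

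Fgfr3, the receptor that takes up Fgf9 among other ligands, had signals of 143 on the sublingual, 156 on the submandibular-labelled and 95.3 on the parotid array. It was 1.14-fold and 1.34-fold higher than on the parotid array, both under 2-fold, so no direction is read from them. Its probe spanned chromosome 14 from 82684088 to 82684322 (rn4).

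Fgfr4, known as the receptor of bile acid control in the liver, could be compared for a single pair of arrays. Its signals were 11.8 on the sublingual array, not well above background, and 54.9 on the parotid array, at least 3.94-fold lower on the sublingual. With normexp this difference was -0.96 on the log2 scale, just short of 2-fold. On the submandibular-labelled array the spot gave 729, but the scanner software marked its pixels as not uniform, with an error of 16.5% of the signal, and it was left out. The probe lay on chromosome 17 from 15512990 to 15513049 (rn4). Its level on the submandibular-labelled array is thus not given.

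The rest of the pathway was read from a list of 83 genes, of which 75 had a probe and 50 were well above background on at least 1 array. Of 48 compared between the sublingual and parotid arrays, 7 were higher by 2-fold or more and 6 lower, and of 48 between the submandibular-labelled and parotid arrays 8 were higher and 5 lower. These are shares close to those of all genes (12.5% and 12.3%, and 10.9% and 11.0%). Medians were 0.02 and 0.28, against 0.06 and 0.10 over all genes compared. Between the sublingual and submandibular-labelled arrays, 0 of 48 differed by 2-fold, where 1.55% of all genes compared did.

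Most of the other ligands were at background. Of 13 probed, 3 were well above background on any array. Fgf21, an endocrine FGF of metabolism, had signals of 10.6 on the sublingual, 4.13 on the submandibular-labelled and 42.1 on the parotid array, with bounds of 3.02-fold and 2.70-fold below the parotid. Fgf18 had signals of 29.4, 12.0 and 31.2 and lay below the parotid by 1.39-fold on the sublingual array and by a bound just past 2-fold on the submandibular-labelled array. Fgf22, a relative of Fgf7 and Fgf10, was above background everywhere at 44.0, 32.3 and 36.3. The intracellular factors Fgf11, Fgf12 and Fgf14 were at background on all 3 arrays, as Fgf13 was.

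Of 8 decoy receptors, co-receptors and carriers compared, 3 were at least 2-fold higher on each array than on the parotid, 1 was lower and 4 were within 2-fold. Over all genes, 12.5% and 10.9% were higher and 12.3% and 11.0% lower on the sublingual and submandibular-labelled arrays. Gpc3, a glypican anchored to the cell surface, had signals of 466 on the sublingual, 460 on the submandibular-labelled and 28.6 on the parotid array, and was 12.4-fold and 13.1-fold higher than on the parotid array. Sdc2, a syndecan, was 2.81-fold and 3.31-fold higher, and Gpc1, another glypican, 2.02-fold and 2.52-fold higher. Flrt3, a membrane protein that binds FGF receptors, ran the other way with signals of 33.8, 20.4 and 111 and was 4.31-fold and 6.67-fold lower. These values are of the brighter probes. A second Flrt3 probe was at background on all 3 arrays (3.94, 4.17 and 3.75) and did not show the difference. Likewise, a second Gpc1 probe was at background on all 3 (14.9, 7.49 and 3.59). Second probes of Sdc2 (342, 337 and 79.5) and Gpc3 (114, 188 and 21.5) were lowest on the parotid array. That of Gpc3 was not well above background there. Among enzymes of heparan sulfate synthesis, Ext1, which extends the chain, was 2.12-fold and 2.38-fold higher on its brightest probe. Its other probes were also higher on both arrays than on the parotid, at levels of 1.38, 0.84 and -0.14 and of -1.91, -1.76 and -2.10. The dimmest of them stayed within 2-fold. Hs3st1, a sulfotransferase, was 2.18-fold and 2.56-fold higher, while the other 7 enzymes compared stayed within 2-fold. The decoy receptor Fgfrl1 had signals of 2400, 2070 and 1940 and levels of 3.30, 3.18 and 3.38, within 2-fold, as were the syndecans Sdc1 and Sdc4 and the glypican Gpc4.

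Inside the cell, 14 of 17 adaptors and kinases compared for the sublingual and 14 of 16 for the submandibular-labelled array were within 2-fold of the parotid. Past 2-fold were 2 higher and 1 lower (sublingual) and 2 higher and 0 lower (submandibular-labelled). Over all genes, 12.5% and 12.3% were higher and lower on the sublingual array, and 10.9% and 11.0% on the submandibular-labelled array. Nothing is read from these counts. Map2k2, a MAP kinase kinase, was 1.97-fold and 2.28-fold higher. Outside the naming rule, Hras was 2.15-fold and 1.74-fold higher, and the adaptor Gab1 2.08-fold and 1.62-fold lower. Of the feedback inhibitors, Dusp6, a phosphatase induced by FGF signalling that removes phosphate from ERK, had signals of 4040 on the sublingual, 3640 on the submandibular-labelled and 7060 on the parotid array, and was 2.29-fold and 2.38-fold lower than on the parotid. Spred3 had signals of 34.6, 20.3 and 30.6 and lay below the parotid by 1.16-fold on the sublingual array and by at least 1.85-fold on the submandibular-labelled array. Spry1 and Spry2 differed from the parotid by less than 2-fold on both arrays, and Spred1, well above background on the submandibular-labelled array alone, was at least 1.32-fold higher there.

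Among transcription factors, Etv1, an ETS factor downstream of FGF receptors, was 2.16-fold lower on the sublingual and 1.86-fold lower on the submandibular-labelled array than on the parotid array. All 3 of its probes were lower on both arrays. Myc, a growth regulator that many signals induce, had signals of 129 and 113 on the sublingual and submandibular-labelled arrays and 1268 on the parotid array, and was 12.9-fold and 13.8-fold lower. Ccnd1, a cyclin, was 1.66-fold and 2.16-fold higher. Etv5 was 1.72-fold and 1.45-fold lower, within 2-fold, and Etv4 and Fosl1 were at background on all arrays. These genes answer to many receptors besides those of FGF, and which signal sets their level was not tested.

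**Figure D4:**
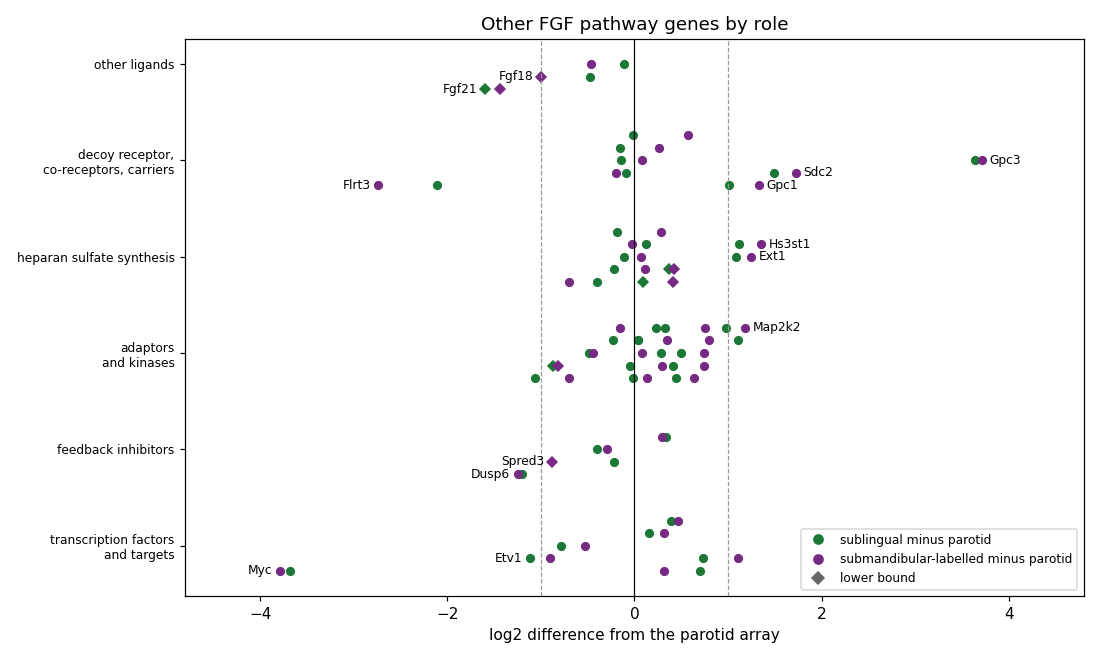
Log2 difference from the parotid array for each gene of the FGF pathway list compared on both arrays and reported here, grouped by role, with the sublingual and submandibular-labelled arrays as separate points and both points of a gene at the same height; diamonds are lower bounds, dashed lines mark 2-fold and names are given by the naming rule. Gpc3 lies furthest to the right (3.63 and 3.71) and Myc furthest to the left (-3.69 and -3.79), while most adaptors and kinases lie between the dashed lines.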

How the data were processed

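The deposited scanner files, 1 per array, hold intensity values per spot. Per the file headers the scanner software was Feature Extraction 10.1.1.1, run under protocol GE1-v5_10_Apr08 on design 014879, coordinates in rn4, with spatial and multiplicative detrending on, local background correction off and surrogates for low signals. Each file also holds 0 or 1 flags for outliers and for signal well above background. The deposited series table holds a linear ratio per spot, which matched the scanner value over a constant of each array (250 for sublingual, 236 for submandibular-labelled and 190 for parotid), so its scale and direction are settled and no gene was centred; its medians are 0.128, 0.122 and 0.152. Per the labels' protocols, about 30 mg of gland was kept in RNA preservative and 500 ng of RNA was labelled.

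Controls and outlier-flagged spots (73, 79 and 68) were dropped, and no spot was saturated. Signals were put on the log2 scale, averaged over spots of a probe, and reduced by the array's 75th percentile. Of 41012 probes, 20546 were named through the RefSeq table of GRCr8 (names only), giving 16067 genes. A gene is its brightest probe. Against a dim array the fold uses the higher of the dim probe's own level and the lowest level well above background there (-3.74, -3.58 and -3.43). Listed genes outside the members were named where at least 2-fold from the parotid on both arrays, or as the 2 largest of a role; others named are examples chosen after their values were seen, and some listed genes, 1 of them named by the rule, are not reported here. The members and lists were chosen with earlier results of these data known. Probe exons and UTRs were not examined. The arrays share a slide and scan, so gland and position cannot be told apart. Their number limits the precision. The counting steps were tested on simulated data. Python 3.11.15, numpy 2.4.6, pandas 2.3.3, matplotlib 3.10.9 and, for normexp, limma 3.58.1 in R 4.3.3 were used. Alternatives were normexp (offset 50), quantile normalization, median centring, the deposited ratios, other probe rules, filters and bounds, and thresholds of 1.5-fold and 4-fold.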

Additional observations from a re-analysis of the deposited data

How the results depend on the processing

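Of 156 counts recomputed under 12 alternatives (10 planned and 2 chosen after seeing the data), 116 stayed within 1.5 times the main count. Of 207 member differences, 141 moved by less than 0.113 on the log2 scale, a spread taken from repeat spots, and 66 by more. Those at least 2-fold in the main run kept their sign where they could be recomputed. All of these except Fgf9 were bounds, whose sign was fixed by the background flag wherever bounds were used, so nothing is read from this. In the order sublingual against parotid and submandibular-labelled against parotid, the main counts of members higher and lower were 1 and 2, and 1 and 2, with 4 members past 2-fold between any pair. With normexp they were 0 and 1, and 0 and 1, with 1 member in all and 3 listed pathway genes lower on the submandibular-labelled array. With only genes well above background on both arrays they were 0 and 0, and 0 and 1, with 1 member in all and 3 pathway genes lower on the submandibular-labelled array. With no bound, 4 members were lower in each, and 1 pathway gene was higher on the sublingual than on the submandibular-labelled array. Quantile normalization left 1 member lower on the sublingual array, and 3 and 5 pathway genes higher. Median centring, which raised every difference from the parotid by 0.24 and 0.31, left 3 and 3 pathway genes lower, and centring on the median difference of genes on all arrays (0.11 and 0.14) left 4 higher on the sublingual array. At 4-fold, 0 members were higher and 1 lower in each, 1 member in all, with 1 pathway gene higher and 2 lower in each. At 1.5-fold, 5 members were lower on the sublingual array, 13 pathway genes were higher and 10 lower on the submandibular-labelled array, and between the sublingual and submandibular-labelled arrays 1 member was higher, with 2 pathway genes higher and 2 lower. With flagged spots kept, Fgfr4 entered, with 2 members higher on the submandibular-labelled array relative to the parotid and 1 lower on the sublingual than on the submandibular-labelled array. With the dimmest probe of each gene, 3 and 4 pathway genes were higher. Among the members, Fgf2 was then not compared, and bounds past 2-fold came from Fgfr1 (-1.50 and -1.22) and, on the sublingual array, Fgfr2 (-1.05). The deposited ratios and the median of probes moved no count by over 1.5 times. No paired analysis was possible because each gland has 1 array. Signal over background limits Fgf1, Fgf2, Fgf7, Fgf10 and Fgfr4, each dim on at least 1 array.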

Other observations

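Over the 9486 genes measurable on every array, the 3 whose levels lay nearest to the pattern of Fgf9 were F8, a clotting factor gene (distance 0.01), Zfp346 (0.02) and Pclaf (0.03), in log2 units after each gene was centred on its own mean. Their levels were -0.98, -1.76 and -0.13 for F8, -0.40, -1.15 and 0.46 for Zfp346 and -2.31, -3.12 and -1.45 for Pclaf on the sublingual, submandibular-labelled and parotid arrays. In all, 11 genes lay within 0.1 of Fgf9, and a likeness over 3 arrays is a description only.

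Probes that the files describe as FGF receptor sequences but name otherwise are not members. The one described as resembling a human FGFR3 fragment lies on chromosome 14 from 2735892 to 2735951 (rn4), away from the Fgfr3 probe. It had signals of 244 on the sublingual, 145 on the submandibular-labelled and 296 on the parotid array, and was 1.59-fold and 2.5-fold lower than on the parotid array. A probe for a predicted Fgfr1-like gene had signals of 23.1, 40 and 23.1. Probes for a partial Fgfr1 gene sequence (4.86, 13.8 and 12.7) and for an Fgfr3 fragment (5.65, 5.80 and 5.27) were not well above background on any array.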
